A study of Arabidopsis thaliana with 9 samples.

Results

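The UDP-glycosyltransferase genes of Arabidopsis thaliana whose symbols read UGT and a number were examined for their transcript levels in cold-treated seedlings. Of 58 genes with such a symbol in the RefSeq gene table, 47 had a probe set listed for that gene alone, and UGT78D2 and UGT78D3 were left out, so 45 genes remained of the 13356 that had a probe set of their own. The rule rests on symbols and uses no signal, but the family itself was picked with earlier results of these data known. Each of the 45 had 1 probe set. The samples were whole wild-type seedlings, roots included, raised for 10 days at 22 °C in continuous light of 60 to 80 microE on Gamborg's medium with 0.7% agar and no sucrose, after 3 days of stratification. Seedlings of the accession WS (WS2 in 1 of the label fields) spent 24 h at 4 °C (2 arrays), seedlings of Col-0 spent 24 h at 4 °C (5 arrays), and Col-0 controls spent the same time in a fresh chamber at 22 °C (2 arrays). The titles of 2 of the 5 cold Col-0 arrays carry the name set 4, which the labels do not explain. No WS array at 22 °C was used here, so the cold response of WS could not be measured.

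UGT enzymes move a sugar, most often glucose, from a UDP-sugar to a small acceptor molecule. In plants the acceptors include hormones, hydroxycinnamic acids, monolignols, flavonoids, glucosinolate precursors, sterols and foreign compounds, and the sugar usually makes the product more soluble, less reactive and fit for storage in the vacuole. Genes that share a number and letter are the closest relatives by protein sequence, and many of them stand side by side on the chromosome. β-Glucosidases can split the sugar off again.

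Levels are log2 signals of the RMA summary (robust multi-array average), 1 value per gene and array, and a difference of 1 is a 2-fold change. Array medians lay between 5.81 and 6.06, and pairs of cold Col-0 arrays correlated at 0.979 to 0.993 over all probe sets, pairs of a cold and a 22 °C Col-0 array at 0.935 to 0.951. The treatment showed in COR15A, a cold-regulated chloroplast protein gene, which had signals of 13.35 to 13.53 in cold Col-0 and of 6.42 and 8.32 at 22 °C. The root markers PYK10 and EXPA7 and the shoot markers CHLM and LHCB4.2 had mean signals of 11.70, 5.44, 9.61 and 10.79 over the 9 arrays. The marker lists held 8 root names and 10 shoot names, of which 2 each had a probe set listed for that gene alone. Of 4 senescence names 0 had one. Only genes with such a probe set are counted as measured here.

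The 45 UGT genes spanned most of the array's range. Mean signals over the 9 arrays ran from 3.23 for UGT76E1 to 9.48 for UGT78D1, a flavonol rhamnosyltransferase gene, with UGT88A1 (9.41), UGT74D1 (8.83) and UGT87A2 (8.30) also bright. For 8 genes the mean was under 3.90, the 25th percentile of all probe sets: UGT76E1, UGT76E12, UGT73C2, UGT73C7, UGT84B1, UGT84B2, UGT71B6 and UGT73D1. These 8 are called dim here. A small difference at such a level need not mean an unchanged transcript. No gene was removed for a low signal, so all 45 were tested.

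Cold for 24 h moved 10 of the 45 genes in Col-0, 5 of them up and 5 down. UGT73C1, UGT84A3, UGT72B3, UGT84A1 and UGT87A2 rose 2.8-fold to 5.9-fold, and UGT71C1, UGT85A5, UGT76C2, UGT85A2 and UGT85A4 fell, to signals 2.2-fold to 3.1-fold lower than at 22 °C. A gene was called when limma, fitted to all probe sets and arrays, gave a Benjamini-Hochberg adjusted p under 0.05 and a change of at least 2-fold. By this rule 5.87% of the 22746 probe sets tested rose and 6.09% fell, 12.0% together, against 11.1% of the UGT genes in each direction. The median cold difference of the 45 genes was 0.09 on the log2 scale, that of all probe sets 0.03. Whether a transcript fell because cells that hold it became fewer or because each held less of it cannot be told apart in RNA of whole seedlings.

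**Figure D1:**
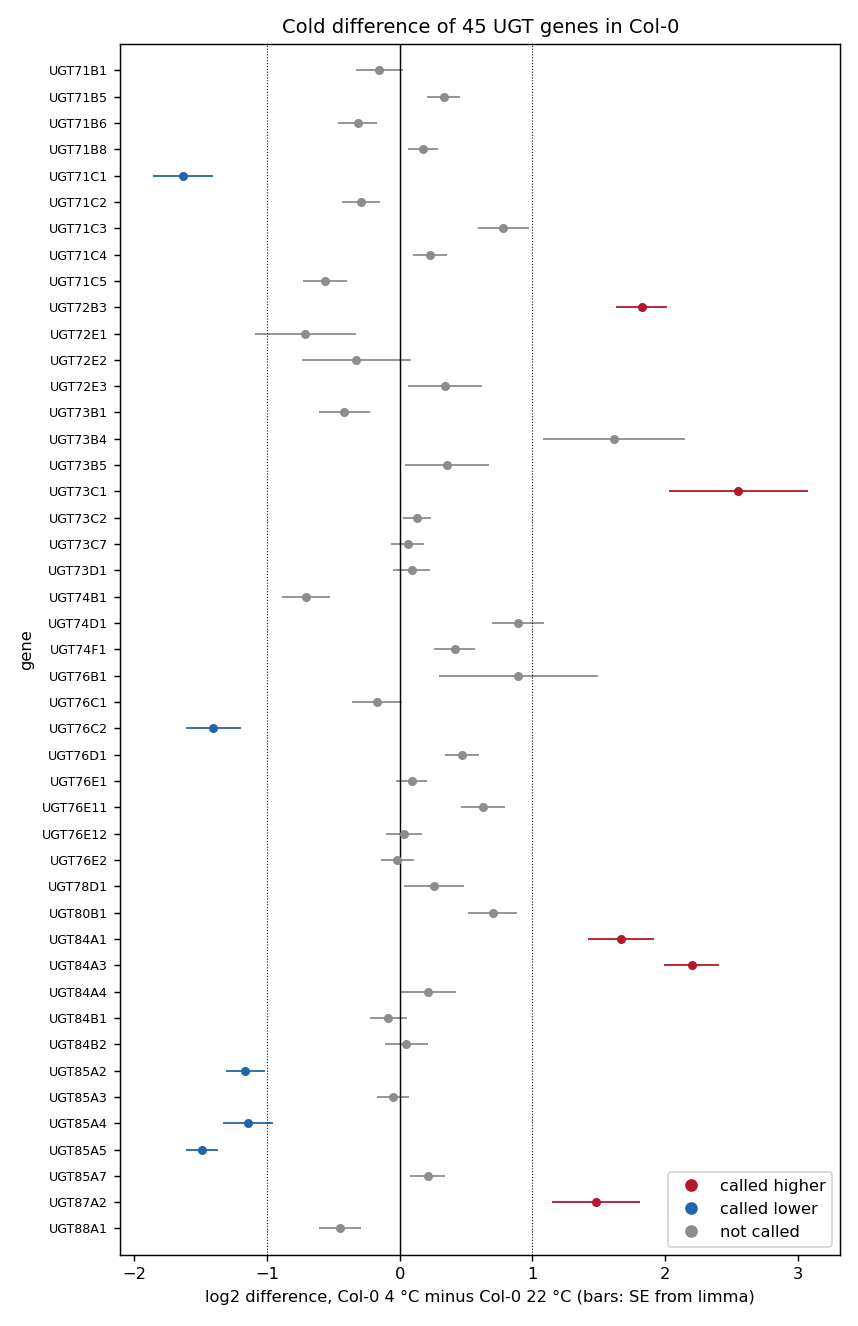
The log2 difference between Col-0 at 4 °C (n = 5) and Col-0 at 22 °C (n = 2) is plotted on the horizontal axis for each of the 45 UGT genes, with the SE from limma as bars and dotted lines at the minimum change of 1. The 5 genes called higher reach from 1.48 to 2.55, the 5 called lower from -1.14 to -1.64, and most of the others lie near 0.

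Genes for the enzymes that esterify hydroxycinnamic acids such as sinapate and ferulate with glucose were among those that rose. UGT84A3 (AT4G15490) had signals of 9.17, 8.60 and 9.09 in replicates 1 to 3 and 8.65 and 8.65 in the set 4 arrays of cold Col-0, against 6.33 and 6.93 at 22 °C. Every cold array lay above both 22 °C arrays. The 4.6-fold rise (log2 2.20, SE 0.21, limma adjusted p = 8.21e-05) was the second in size among the 45 genes. UGT84A1 (AT4G15480), its neighbour, had 7.02, 6.25, 7.06, 6.31 and 6.65 in cold Col-0, against 5.02 and 4.96 at 22 °C. The groups were again apart, and the rise came to 3.2-fold (log2 1.67, SE 0.25, limma adjusted p = 0.000938). UGT84A4 (AT4G15500), the third gene of the row and an enzyme of the same kind, averaged 5.72 ± 0.32 (SD, n = 5) in cold Col-0 and 5.51 ± 0.24 (n = 2) at 22 °C. Its log2 difference of 0.22 was not called (limma adjusted p = 0.511).

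The largest rise belonged to UGT73C1 (AT2G36750), whose enzyme glucosylates cytokinins and the explosive TNT in vitro. Its signals were 6.78, 7.07 and 7.47 in replicates 1 to 3 and 5.24 and 6.20 in the set 4 arrays of cold Col-0, against 4.17 and 3.83 at 22 °C. No cold array reached down to the controls, but the cold arrays themselves differed by 2.23, and both set 4 arrays were the lowest. The rise was 5.9-fold (log2 2.55, SE 0.52, limma adjusted p = 0.0053). UGT73C2 (AT2G36760), which stands beside UGT73C1, was dim in every group, with means of 3.42 ± 0.10 in cold Col-0 and 3.29 ± 0.10 at 22 °C (SD, n = 5 and 2), and its difference of 0.13 was not called (limma adjusted p = 0.442).

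UGT72B3 (AT1G01420) is a relative of GT72B1, the gene of an enzyme that conjugates chlorinated phenols and coniferyl alcohol. It had 7.56, 8.01, 8.01, 7.97 and 7.50 in cold Col-0, against 5.77 and 6.20 at 22 °C. The cold arrays kept within 0.51 of each other and lay more than 1 above the controls, a 3.5-fold rise (log2 1.82, SE 0.19, limma adjusted p = 0.000141). GT72B1 itself is outside the 45 because its listed symbol lacks the U, as are 3 further genes that bear a UGT name only as a synonym. It averaged 8.67 ± 0.20 in cold Col-0 and 9.43 ± 0.11 at 22 °C (SD, n = 5 and 2). Its log2 difference of -0.75 passed the adjusted p (limma, 0.00337) but not the minimum change.

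UGT87A2 (AT2G30140), an enzyme gene known for its effect on flowering time through the floral repressor FLC, had 8.41, 8.35, 9.14, 8.41 and 8.62 in cold Col-0, against 6.46 and 7.75 at 22 °C. The control arrays differed from each other by 1.28, more than the cold arrays did. The rise of 2.8-fold (log2 1.48, SE 0.33, limma adjusted p = 0.00857) therefore depended on which control was used. Without replicate 1 at 22 °C it was 1.8-fold and not called (limma adjusted p = 0.0972), and without replicate 2 it was 4.4-fold.

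**Figure D2:**
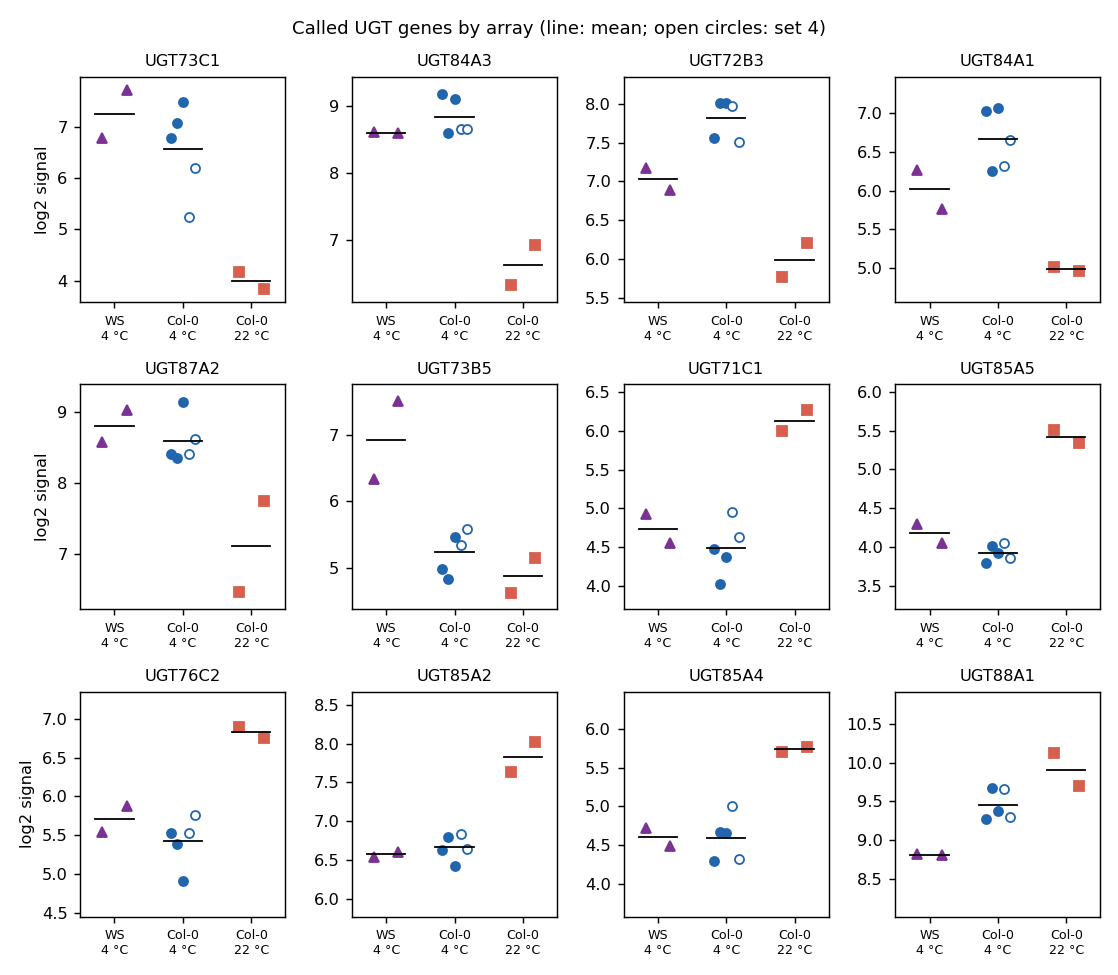
Each panel shows 1 gene, with the log2 signal of every array on the vertical axis for WS at 4 °C (triangles, n = 2), Col-0 at 4 °C (circles, n = 5, open for set 4) and Col-0 at 22 °C (squares, n = 2), and the group mean as a line. The 10 genes called in Col-0 have no overlap between cold and control arrays, UGT73B5 stands apart in WS, and UGT88A1 is lowest in WS.

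Of the 5 measured UGT85 genes, 3 were called lower and none higher, beside 6.09% and 5.87% of all probe sets. UGT85A5 (AT1G22370) had 3.79, 4.02, 3.93, 4.05 and 3.86 in cold Col-0, against 5.50 and 5.34 at 22 °C. Both groups were tight, and the cold signals stood close to 3.90, the 25th percentile of all probe sets (log2 -1.49, SE 0.12, limma adjusted p = 3.27e-05). UGT85A2 (AT1G22360) had 6.63, 6.80, 6.42, 6.84 and 6.65 in cold Col-0, against 7.63 and 8.02 at 22 °C. The groups were apart (log2 -1.16, SE 0.15, limma adjusted p = 0.000382). Without replicate 2 at 22 °C the difference was -0.97 and fell short of the minimum change. UGT85A4 (AT1G78270), which lies apart from its relatives on the chromosome, had 4.29, 4.67, 4.66, 5.01 and 4.32 in cold Col-0, against 5.70 and 5.76 at 22 °C (log2 -1.14, SE 0.19, limma adjusted p = 0.00175). The other 2, UGT85A3 and UGT85A7, had log2 differences of -0.05 and 0.21 and were not called. The substrates of these 5 are not described here. The group also includes UGT85A1, which glucosylates the cytokinin zeatin but had no probe set of its own.

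UGT76C2 (AT5G05860) encodes an enzyme that attaches glucose to the ring nitrogen of cytokinins, which inactivates them. It had 5.53, 5.38, 4.91, 5.53 and 5.76 in cold Col-0, against 6.90 and 6.76 at 22 °C. All cold arrays lay about 1 or more below the controls (log2 -1.40, SE 0.21, limma adjusted p = 0.000906). Its neighbour UGT76C1, an enzyme gene of the same activity, averaged 6.06 ± 0.27 in cold Col-0 and 6.23 ± 0.04 at 22 °C (SD, n = 5 and 2), with overlapping arrays (log2 -0.17, limma adjusted p = 0.578).

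UGT71C1 (AT2G29750), which acts on quercetin and hydroxycinnamic acids in vitro, had the largest fall. Signals were 4.48, 4.03, 4.37, 4.96 and 4.63 in cold Col-0, against 5.99 and 6.27 at 22 °C. The highest cold array was still about 1 below the lower control (log2 -1.64, SE 0.22, limma adjusted p = 0.000611). The shoot markers moved in the same direction over the same arrays: both measured ones fell, CHLM by 1.62 and LHCB4.2 by 1.86 on the log2 scale, and neither root marker was called (PYK10 -0.37, EXPA7 0.17). Their linear signals summed to between 1792 and 2836 for the shoot pair in cold Col-0, against 5636 and 9994 at 22 °C, and to between 2383 and 3862 for the root pair in cold Col-0, against 3284 and 4789 at 22 °C. The marker lists were chosen with earlier results of these data known, and both measured shoot markers are photosynthesis genes. The fall of the shoot pair therefore does not measure the amount of shoot tissue. The part of tissue makeup in the UGT differences was not tested.

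A further 7 genes passed the adjusted p in the cold with changes under 2-fold, 5 higher and 2 lower, as did 8.11% and 8.41% of all probe sets. UGT74D1, which glucosylates auxin and its oxidised form, averaged 9.01 ± 0.28 in cold Col-0 and 8.12 ± 0.08 at 22 °C (SD, n = 5 and 2). Its difference of 0.89 (limma adjusted p = 0.00776) reached 1.05 without the set 4 arrays and was then called, as it was without the first of them alone. UGT71C3, which glucosylates methyl salicylate, had 0.78 (0.0139), the sterol glucosyltransferase gene UGT80B1 0.70 (0.0194), UGT76E11 0.63 (0.0189) and UGT76D1, which acts on dihydroxybenzoic acids, 0.47 (0.0232), with limma adjusted p in parentheses. UGT74B1, which glucosylates the thiohydroximate precursor in glucosinolate synthesis, had -0.71 (0.0158), and UGT71C5, which glucosylates abscisic acid, had -0.56 (0.0307). In these 7 genes no cold array overlapped with the controls. The same held for 15 of the 45 genes above the controls and 8 below them, or 33.3% and 17.8% of the UGT genes, beside 20.5% and 19.2% of all probe sets.

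Most other UGT genes with a known hormone substrate kept small differences. UGT71B6 and UGT71B8, further abscisic acid glucosyltransferase genes, had -0.32 and 0.17 (limma adjusted p = 0.154 and 0.304). UGT74F1, which makes salicylate glucosides, had 0.42 (0.0753), and UGT84B1 of auxin conjugation and its neighbour UGT84B2 had -0.08 and 0.05 at dim signals. UGT76E1, which glucosylates a hydroxylated jasmonate, was the dimmest of the 45 and had 0.09. Of the 16 among the 45 on the hormone list, UGT73C1 was called higher and UGT76C2 lower, with a median difference of 0.07. Of 6 on the hydroxycinnamate and monolignol list, UGT84A1 and UGT84A3 were called higher (median 0.28), and of 6 on the pathogen and foreign-compound list UGT73C1 alone (median 0.24). Over all probe sets 12.0% were called and the median was 0.03. The 2 of the 45 on the flavonoid list, UGT78D1 and UGT71B1, were not called (0.26 and -0.15). A called gene of that list lay outside the 45 by its symbol, as GT72B1 did: UF3GT, which adds xylose to anthocyanins and has a UGT79 name only as a synonym. It had 8.25, 8.45, 8.93, 7.85 and 9.60 in cold Col-0, against 7.04 and 5.95 at 22 °C. No arrays overlapped (log2 2.12, SE 0.44, limma adjusted p = 0.00603), but without replicate 2 at 22 °C it was not called (0.0757). In WS at 4 °C it had 6.72 and 7.17, below every cold Col-0 array (log2 -1.67, limma adjusted p = 0.069, and under 0.05 without set 4, without dim probe sets or with a variance trend).

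The smallest differences in the cold belonged to UGT76E2 (-0.02), UGT76E12 (0.03), UGT84B2 (0.05), UGT85A3 (-0.05) and UGT73C7 (0.06). Of these, UGT76E12, UGT84B2 and UGT73C7 are dim. The 95% interval for UGT76E2 ran from -0.30 to 0.26, and for 25 of the 45 genes the whole interval lay between -1 and 1. The 25 include all the dim genes, where a narrow interval need not mean an unchanged transcript. The share over all probe sets was not computed. UGT71B5 (0.33), UGT71C4 (0.23), UGT73B1 (-0.42) and UGT73D1 (0.09) were not called either, and over the 45 genes 27 estimates were above 0 and 18 below. Among those not called, UGT73B4 had the largest estimate. Its enzyme conjugates TNT. Signals were 4.80, 4.12, 5.66, 4.80 and 6.20 in cold Col-0, against 3.34 and 3.67 at 22 °C, so all cold arrays were higher, by very different amounts. The difference of 1.61 (SE 0.54) missed the threshold (limma adjusted p = 0.0506), with both control signals under the dim limit of 3.90. It was called without replicate 2 of cold Col-0 (0.0235) or either WS array (0.0427). Its adjusted p ran from 0.0235 to 0.247 over all settings tried.

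**Figure D3:**
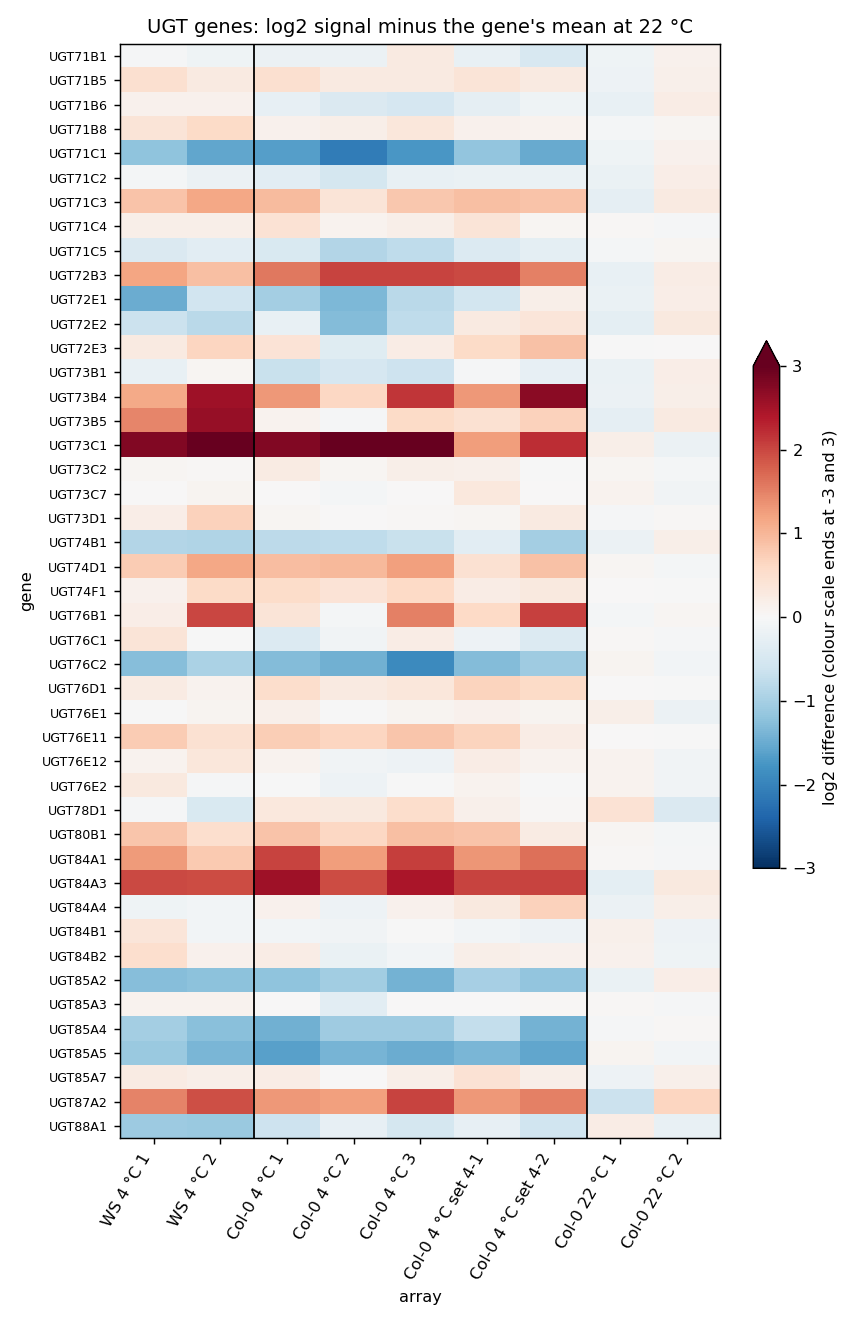
Colour gives the log2 signal of each array minus the mean of that gene over the 2 Col-0 arrays at 22 °C, for the 45 UGT genes in rows by number and for WS at 4 °C, Col-0 at 4 °C and Col-0 at 22 °C in columns, left to right. UGT73C1, UGT84A3, UGT72B3, UGT84A1 and UGT87A2 are red and the 3 fallen UGT85 genes blue on all cold arrays, while UGT73B4 and UGT76B1 vary from array to array.

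Some UGT genes differed as much between cold Col-0 arrays as others did between temperatures. The range over the 5 cold arrays had a median of 0.55 for the UGT genes and of 0.44 for all probe sets, and 6 UGT genes exceeded 1.17, the 95th percentile of all probe sets. They were UGT73C1 (2.23), UGT76B1 (2.12), UGT73B4 (2.08), UGT72E2 (1.65), UGT72E1 (1.52) and UGT72E3 (1.25). UGT76B1, whose enzyme glucosylates isoleucic acid, salicylate and N-hydroxypipecolic acid and restrains immunity, had 6.59, 6.14, 7.71, 6.82 and 8.26 in cold Col-0, against 6.15 and 6.27 at 22 °C. Replicate 3 and the second set 4 array were the highest pair for both UGT76B1 and UGT73B4, and replicate 2 was the lowest for both. For UGT76B1 the cold and control arrays overlapped (log2 0.90, SE 0.60, limma adjusted p = 0.328).

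The 3 UGT72E genes, whose enzymes glucosylate coniferyl and sinapyl alcohols and aldehydes, shared another order. UGT72E2 had 7.53, 6.45 and 6.99 in replicates 1 to 3 and 8.02 and 8.10 in the set 4 arrays of cold Col-0, against 7.46 and 8.03 at 22 °C. UGT72E1 had 6.90, 6.57 and 7.10 in those replicates and 7.36 and 8.09 in set 4, against 7.71 and 8.13 at 22 °C. UGT72E3 had 5.50, 4.73 and 5.31 in those replicates and 5.67 and 5.98 in set 4, against 5.09 and 5.10 at 22 °C. In each gene the set 4 arrays were the 2 highest cold arrays and replicate 2 the lowest. The set 4 arrays differed from the other cold Col-0 arrays by 1.07 for UGT72E2, 0.86 for UGT72E1 and 0.64 for UGT72E3, but none of these differences was called (limma adjusted p = 0.366, 0.41 and 0.405). In that comparison 0 of the 45 genes and 0.0044% of all probe sets were called by limma. An unadjusted limma p under 0.05 was reached by 8 of the 45, 7 higher and 1 lower in set 4. Over all probe sets 10.6% reached it, 3.17% higher and 7.39% lower. With all arrays UGT72E1 was not called in the cold (log2 -0.71, SE 0.38, limma adjusted p = 0.214). Without set 4 it was called lower, at -1.06 (limma adjusted p = 0.0284).

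**Figure D4:**
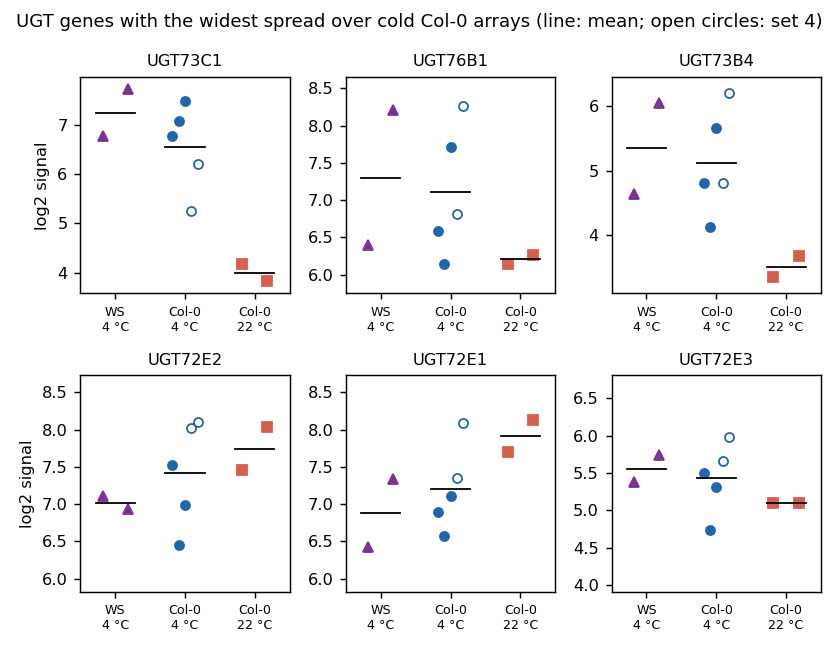
Log2 signals by array are drawn for the 6 UGT genes with the widest range over the cold Col-0 arrays, with WS at 4 °C as triangles (n = 2), Col-0 at 4 °C as circles (n = 5, open for set 4), Col-0 at 22 °C as squares (n = 2) and the group mean as a line. The open circles are the highest cold Col-0 points in the 3 UGT72E genes and the lowest in UGT73C1.

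Relatives that are neighbours on the chromosome did not all take the same course. Of the 45 genes, 24 lay in 10 runs of 2 to 4 members with no other protein-coding gene of the RefSeq table between them. A called member was present in 5 runs, and each of these 5 also held a member that was not called. No run held calls in both directions. UGT84A1 and UGT84A3 rose beside UGT84A4, UGT73C1 rose beside UGT73C2, and UGT85A2 and UGT85A5 fell between UGT85A7 and UGT85A3. UGT76C2 fell beside UGT76C1, and UGT71C1 beside UGT71C2 (log2 -0.29, limma adjusted p = 0.167). The difference between the neighbours was not itself tested, and neither was hybridisation of 1 gene's transcript to a relative's probe set.

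**Figure D5:**
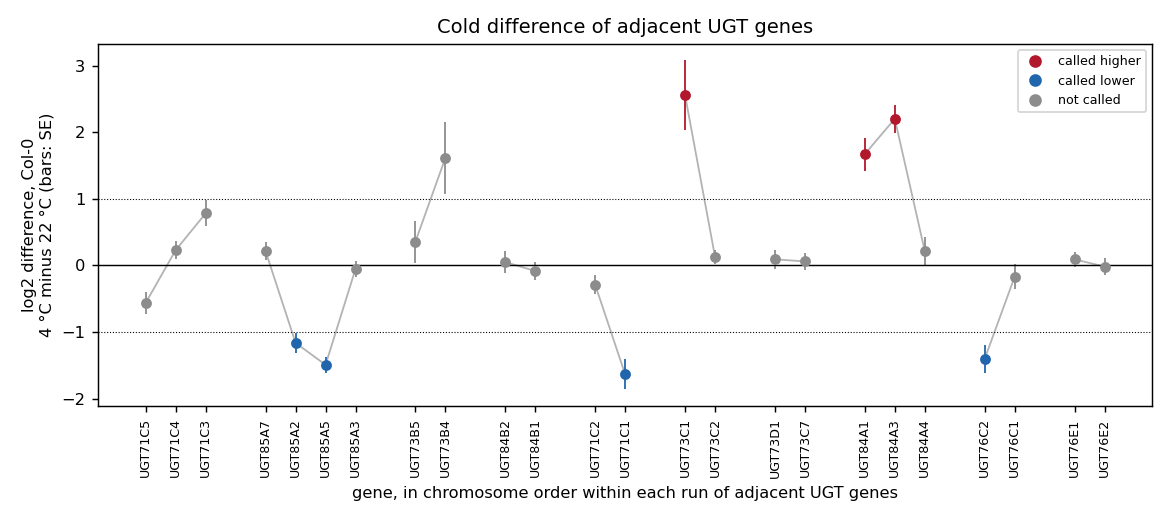
Points give the log2 difference between cold-treated and 22 °C Col-0 (cold over control, n = 5 and 2) with its SE from limma for the 24 UGT genes that have another as direct neighbour, with lines joining the members of a run. In 5 of the 10 runs a called gene (red higher, blue lower) stands beside 1 or 2 that were not called (grey).

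WS and Col-0 were compared after the same cold treatment, to find differences between the accessions. UGT73B5 was the 1 UGT gene called higher in WS, and none was called lower, where 0.857% of all probe sets were higher and 1.28% lower. UGT73B5 (AT2G15480) is needed, with a close relative, for full resistance to Pseudomonas bacteria. It had 6.34 and 7.51 in WS, against 4.99, 4.84, 5.46, 5.34 and 5.59 in Col-0. Both WS arrays exceeded every Col-0 array, yet they differed from each other by more than the 5 Col-0 arrays did. WS was 3.2-fold higher (log2 1.68, SE 0.32, limma adjusted p = 0.019), and without WS replicate 2 it was 2.1-fold and not called (0.152). UGT73B4, which is its neighbour, had 4.64 and 6.06 in WS, within the Col-0 range of 4.12 to 6.20 (log2 0.23, limma adjusted p = 0.885).

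The next in size were UGT72B3, UGT73C1 and UGT84A1, which missed both the adjusted p and the minimum change. UGT88A1, slightly smaller, also missed both. UGT72B3 had 7.17 and 6.89 in WS, against 7.50 to 8.01 in Col-0 (median 7.97), a difference of -0.78 (SE 0.19, limma adjusted p = 0.054). UGT88A1 had 8.82 and 8.81 in WS, against 9.28 to 9.67 in Col-0 (median 9.37), a difference of -0.64 (SE 0.16, limma adjusted p = 0.0559). In both genes WS lay below every Col-0 array. The same held for the shoot marker LHCB4.2 (log2 -0.94, limma adjusted p = 0.107). CHLM, the other measured shoot marker, overlapped between WS and cold Col-0 (log2 -0.12, limma adjusted p = 0.786). Linear signals of the shoot pair, in which LHCB4.2 is the brighter, summed to 1197 and 1591 in WS, against 1792 to 2836 in cold Col-0. The part of tissue makeup here was not tested. UGT84A1 had 6.27 and 5.76 in WS and overlapped with Col-0 at 6.25 to 7.06 (-0.64, limma adjusted p = 0.191), and UGT73C1 had 6.78 and 7.71 in WS (0.69, 0.542). By limma 4 genes were higher and 3 lower at an unadjusted p under 0.05, as were 9.83% and 9.4% of all probe sets. Arrays of WS lay wholly above those of Col-0 in 5 of the 45 genes and wholly below in 4 (11.1% and 8.89%), as did those of 12.1% and 11.3% of all probe sets. For 35 of the 45 genes the 95% interval of the difference lay wholly between -1 and 1, which covers all 5 measured UGT85 genes and all the dim genes. The share over all probe sets was not computed here either. The median difference was 0.07, beside 0.01 over all probe sets.

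Cold WS was also set against Col-0 at 22 °C. Accession and temperature both differ there, and the cold Col-0 comparison uses the same 2 control arrays. In this comparison 7 UGT genes were called higher and 6 lower, 15.6% and 13.3% of the 45, beside 6.82% and 7.37% of all probe sets (14.2% together). Arrays of WS lay wholly above the controls in 46.7% of the 45 genes and below in 22.2%, beside 34.5% and 27.8% of all probe sets. UGT73C1 had the largest difference, with 6.78 and 7.71 in WS against 4.17 and 3.83 in Col-0 at 22 °C (9.5-fold, log2 3.25, limma adjusted p = 0.0044). UGT73B5 had 2.04 (0.00366), UGT84A3 1.97 (0.000499), UGT87A2 1.70 (0.0112), UGT72B3 1.04 (0.00861) and UGT84A1 1.03 (0.0297), with limma adjusted p in parentheses, and UGT71C3 was 2.0-fold higher (0.0108). The lower ones were UGT71C1 at -1.39 (0.00451), UGT85A2 at -1.25 (0.000838), UGT85A5 at -1.25 (0.000288), UGT85A4 at -1.13 (0.00544), UGT76C2 at -1.11 (0.00892) and UGT88A1 at -1.09 (0.00272). UGT88A1 had 8.82 and 8.81 in WS, against 10.12 and 9.69 in Col-0 at 22 °C. Of the shoot markers, CHLM and LHCB4.2 differed by -1.74 and -2.79 here. Without replicate 1 at 22 °C only 4 genes were called higher, as UGT71C3, UGT72B3, UGT84A1 and UGT87A2 dropped out and UGT74D1 came in. UGT87A2 was then at 1.06, which is 2.1-fold in place of 3.3-fold. The calls of UGT76C2 and UGT88A1 also ended there (limma adjusted p = 0.0551, and a difference of -0.88), and UGT74B1 was called lower. Without WS replicate 1, UGT72B3, UGT84A1 and UGT76C2 were not called (0.0601, 0.174 and 0.064), while UGT73B4 and UGT74D1 were called higher. Without WS replicate 2, UGT71C3 and UGT87A2 were not (0.0774 and 0.0788), and without replicate 2 at 22 °C, UGT84A1 was not (0.104).

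Genes for the opposing step and for the supply of substrates were read from the same fit. Of 21 measured β-glucosidase genes, BGLU15 and BGLU25 rose and BGLU16 and BGLU40 fell in cold Col-0, with a median of -0.12. Over all probe sets 12.0% were called there and the median was 0.03. BGLU15, which splits flavonol glycosides, had 7.34, 6.90, 7.32, 7.26 and 7.51 in cold Col-0, against 6.15 and 6.34 at 22 °C (log2 1.02, limma adjusted p = 0.00455). It was also the 1 of 21 called in WS against cold Col-0, with 7.96 and 8.63 in WS (log2 1.03, limma adjusted p = 0.0223). In that comparison 2.14% of all probe sets were called. BGLU47 missed only the minimum change there, at -0.995 (limma adjusted p = 0.00475), with both WS arrays below every cold Col-0 array. BGLU25 had a cold difference of 2.03 (1.12e-05), BGLU16 of -1.65 (0.000155) and BGLU40 of -2.30 (0.000319). USP, which makes UDP-sugars, was the 1 gene of the UDP-sugar list with its own probe set and had -0.04. Of phenylpropanoid supply, HCT and CCR2 were measured and not called in cold Col-0 (-0.67 and 0.71). Of the salicylate list, which holds no UGT gene, BSMT1 alone had a probe set of its own, at -0.02 and dim. Of the hormone metabolism list, 4 auxin-conjugating GH3 genes had a probe set of their own. By limma 0 of these 4 were called in cold Col-0, and GH3.17 had the lowest p (log2 -0.76, adjusted p = 0.0157). No gene of the indole glucosinolate list or of the list of vacuolar conjugate transporters had a probe set listed for it alone. The array may still hold probes for genes without a match. Of the 22746 probe sets tested, 503 were listed for several genes and 8730 for none, and these were not searched.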

How the data were processed

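The authors made the deposited log2 values from Affymetrix arrays of biotin-labelled RNA by RMA with the package affy, per the submitters' processing notes and the labels; versions are not given in the sources used here. Gene names came from the platform's probe table and from RefSeq (TAIR10.1). Of 22810 probe sets, 64 controls were left out and 22746 tested; 13513 had a single gene, 503 several and 8730 none. A gene with several probe sets would be read from the brightest, but no UGT gene had several. The 11 UGT symbols without a probe set of their own were not used here.

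Group means were fitted to all 9 arrays with lmFit and eBayes (limma 3.58.1, R 4.3.3; 6 residual degrees of freedom, or 5 with set 4 as a group). Benjamini-Hochberg adjustment covered every tested probe set, and 95% intervals used the moderated t distribution. Nothing in the labels says that arrays are of separate cultures, so the p-values reflect variation among these samples, which may be technical, and precision is limited by how few arrays there are. Probes follow the Col-0 sequence, and the effect of WS sequence differences was not tested. The labels do not say whether replicate numbers pair the samples, and the main fit did not pair them. Deviations of same-numbered cold and 22 °C Col-0 arrays from their group means correlated at r = 0.20 and -0.33. With 2 arrays at 22 °C those deviations mirror each other, so these values cannot decide whether samples were paired.

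Members, gene lists and comparisons were chosen with earlier results of these data known. Named by rule were all UGT genes called in any comparison, the 3 largest differences not called in the cold and the accession comparison, the 5 smallest cold differences, and genes with 1 far-off array. Other UGT genes were picked for a role, spread or neighbour with their values known. The symbol CHI belongs to a chitinase here and was left out of the phenylpropanoid list.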

Additional observations from a re-analysis of the deposited data

Results flagged for a closer look

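In 4 of the 45 UGT genes 1 cold Col-0 array lay far from the other 4, its gap to the nearest exceeding 0.71 of the whole range of the 5. For normally distributed values chance gives this in about 1 of 20 genes. How often it occurred over all probe sets was not computed. Replicate 2 was the low array for UGT71C3 (5.04, others 5.45 to 5.59) and for UGT85A3 (3.80, others 4.13 to 4.17). The first set 4 array was high for UGT73C7 (3.84, others 3.45 to 3.52), and the second for UGT73D1 (3.89, others 3.65 to 3.69). UGT73C7 and UGT73D1 are among the 8 dim genes.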

How the results depend on the processing

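Each count was refitted under 19 other settings, each of the 9 arrays left out in turn among them. In the cold Col-0 comparison 4 to 6 genes were called higher and 4 to 5 lower when an array was left out. With no minimum fold 10 were higher and 7 lower, beside 14% and 14.5% of all probe sets. UGT71C3 joined the higher genes without replicate 2 at 22 °C. UGT73B4 did so with arrays centred on their medians, without dim probe sets, with a variance trend or with only the groups compared in the fit. Without set 4, or with set 4 as its own group, UGT74D1 was called higher and UGT72E1 lower. In WS against cold Col-0 the count of higher genes was 0 to 1 without an array and 0 at an adjusted p under 0.01, and none was called lower under any of the 19. In cold WS against Col-0 at 22 °C, 4 to 8 were higher without an array and 4 at an adjusted p under 0.01. UGT71C3 and UGT87A2 were lost there with only the groups compared, and UGT84A1 with array weights. With a block for each replicate number all these counts were as in the fit without it (5 and 5, 1 and 0, 7 and 6). That fit put the set 4 arrays in the blocks of replicates 1 and 2, which the labels do not state. Replicate 3 stood alone in its block, so the unchanged counts cannot decide whether samples were paired. Of 570 refits of single named genes none turned the direction of a called difference, 22 lost and 11 gained a call. Many of these refits could not turn a direction. Other cutoffs, another variance model, fewer probe sets or the loss of an array outside the 2 groups compared leave the difference itself unchanged. Averaging several probe sets of a gene was not run, since no UGT gene has them. The 22 °C and WS groups have 2 arrays each, which limits the precision of every difference that uses them.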
